A study of Rattus norvegicus with 6 samples.

Results

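The genes described here encode ion channels, their accessory subunits and the calcium sensors that open them. They were taken from rat RNA sequencing counts by symbol: every gene whose symbol begins with Kcn (potassium channels) or Cacn (voltage-gated calcium channels), and the numbered Scn (sodium channel), Trpc, Trpv, Trpm (transient receptor potential, TRP), Ryr, Itpr (calcium release), Orai, Stim (store-operated calcium entry) and Piezo (stretch-gated) genes. The rule found 168 of the 31038 genes listed in the files. The name voltage-gated does not cover all of them, since inward rectifier and leak potassium channels, store sensors and accessory proteins are included. The libraries came from cells that had received an siRNA against eIF3m (3 libraries) or a control siRNA (3 libraries). All 6 were labelled as myocardial cells called NRVM, and their growth text gives embryonic rat heart muscle as the source and a serum-containing medium. The extraction text, the same for all 6, begins partway through a schedule of dexamethasone and isobutylmethylxanthine followed by insulin, so both groups carry this treatment as far as the labels say. Nothing in the labels says whether the 3 libraries per group came from different cultures; the p-values rest on the spread among them, and that spread may be technical only.

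A heart muscle cell fires when sodium channels depolarise it, contracts when L-type calcium channels and the calcium release channels of the sarcoplasmic reticulum raise cytosolic calcium, and resets through potassium channels. Each voltage-gated pore works with accessory subunits that set how many channels reach the surface and how they gate. When the stores of the endoplasmic reticulum run low, the membrane sensors of the Stim family open the Orai pores in the plasma membrane. eIF3m, the gene targeted here, is a subunit of the initiation factor that helps the small ribosomal subunit to bind mRNA.

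Eif3m stood at 91.5, 83.9 and 87.3 CPM in eIF3m siRNA replicates 1, 2 and 3 and at 137, 136 and 141 CPM in control replicates 1, 2 and 3, a log2 fold change of -0.64 ± 0.05 (standard error of the fit, SE). CPM is a gene's count relative to the scaled library total. Totals were 10061575, 2156186 and 7901395 counts in eIF3m replicates 1, 2 and 3, and 7437285 to 8603602 counts in controls. The floor of detection used here, 3 counts, equals 1.32 CPM in eIF3m replicate 2 and 0.285 to 0.425 CPM in the other libraries; floors and counting intervals cover counting error only. One library stood apart: the summed level of 5 blood markers was 5160 CPM in eIF3m replicate 1, against 191 and 42.9 CPM in eIF3m replicates 2 and 3 and 27.5 to 62.3 CPM in controls, and that of 5 endothelial markers was 23.5 CPM, against 1.77 and 1.20 CPM and 0.246 to 0.425 CPM. Of 11 heart muscle markers, only Tnnt2 and Ttn had enough counts for a test. Of the others, Myl3 had no count in any library, Myl2 had 1 count in all, and Myh6, the atrial and adult rodent myosin, had 11, 0 and 4 counts in the eIF3m libraries, against 6, 5 and 6 in controls. Of 11 skeletal myoblast and myotube markers 6 were tested. The labelled cell type is therefore not shown by its defining markers, and the cells are called by their label alone. Marker levels also moved between the groups. Heart muscle markers counted 0 higher and 2 lower of 2 tested, and skeletal muscle markers 0 and 5 of 6. Smooth muscle and pericyte markers counted 0 and 5 of 5. Fibroblast markers counted 4 and 0 of 5, and neuron and glia markers 1 and 0 of 3. Among all genes tested, 17.4% were called higher and 21.2% lower. The fibroblast marker Dcn was at 55.3, 2.21 and 1.8 CPM in eIF3m replicates 1, 2 and 3, against 0.984 to 1.28 CPM in controls. Lum was also highest in eIF3m replicate 1, at 10.3, 3.97 and 2.88 CPM, against 0.255 to 0.861 CPM in controls. Col1a1 and Postn did not stand out in that library. Heart muscle markers summed to 153 to 172 CPM in eIF3m libraries and 386 to 401 CPM in controls. Most of that was Tnnt2, at 142 to 158 and 359 to 376 CPM. Skeletal muscle markers summed to 225 to 250 and 277 to 293 CPM, mostly Cdh15, at 190 to 211 and 218 to 229 CPM. Myod1 was at 13.2 to 19.4 and 13.2 to 17.8 CPM, and Myog at 4.76 to 6.18 and 16.8 to 22.1 CPM. Smooth muscle and pericyte markers summed to 3620 to 3800 and 5630 to 5770 CPM. Fibroblast markers summed to 14000 to 14400 and 12700 to 13300 CPM, and neuron and glia markers to 23.8 to 33.5 and 14.2 to 16.2 CPM. These sums rest on a few genes and do not rank the cell types. The part of these shifts in the channel results was not tested, and in bulk RNA fewer cells of a type and less RNA per cell cannot be told apart.

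Of the 168 channel genes, 59 were measurable, meaning that they passed the filter on low counts and were tested. Another 94 had at least 1 count but too few for a test, and 15 had none in any library. More than 3 counts in every library were found for 50 genes, and 63 had at most 3 counts in each library. The families differed in how much could be seen. All 4 Cav beta, 3 Orai, 2 Stim and 2 Piezo genes were tested, against 6 of 30 voltage-gated potassium (Kv) pores and 0 of 8 Cav gamma subunits. Several pores that carry the potassium currents of heart muscle were at or near 0. Kcnj2, the main inward rectifier of ventricular muscle, had a single count, in eIF3m replicate 1, and its relative Kcnj12 had 2 counts, in the same library. Kcnj3 and Kcnj11 had none, which allows up to 0.285 to 1.32 CPM depending on the library. Kcnj5, Kcnd2 and Kcna5 had 1 count each and Kcna4 had 2. Kcnq1, the slow delayed rectifier pore, had 6, 0 and 4 counts in eIF3m replicates 1, 2 and 3, against 1, 1 and 5 in control replicates 1, 2 and 3.

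**Figure D1:**
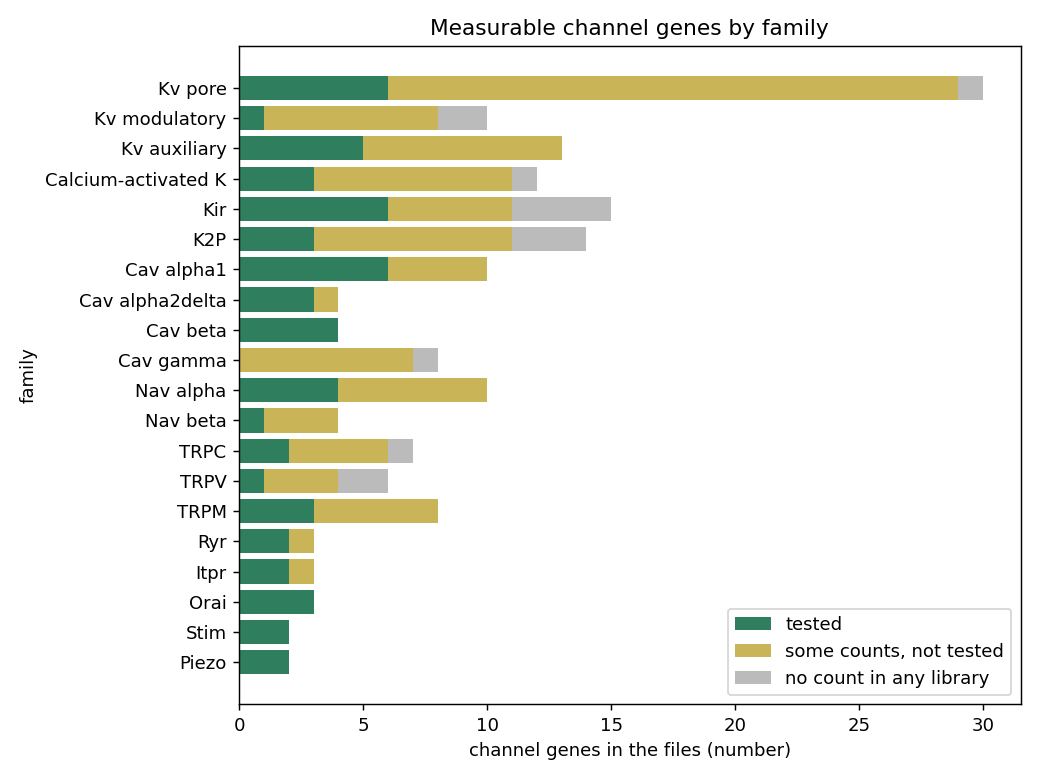
Number of channel genes of each family (vertical axis) in the files (horizontal axis), split into tested genes, genes with some counts that were not tested, and genes with no count in any library. All Cav beta, Orai, Stim and Piezo genes were tested, whereas 24 of 30 Kv pores and all 8 Cav gamma genes were not.

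Genes below the filter drew many of their counts from eIF3m replicate 1. Of 32 untested genes with at least 10 counts over the 6 libraries, 7 had more than 50% of them in that library, which held 22.7% of all counts in the series. Itpr2, an inositol trisphosphate receptor, had 57, 1 and 4 counts in eIF3m replicates 1, 2 and 3, against 4, 2 and 3 in controls. Scn7a had 10 counts, all in eIF3m replicate 1, and Kcnn4, a calcium-activated potassium channel of blood cells and fibroblasts, had 20, 1 and 3 counts in the eIF3m libraries, against 1, 2 and 4 in controls. The summed level of the 168 genes was 2080, 2090 and 2080 CPM in eIF3m replicates 1, 2 and 3, against 2350, 2350 and 2360 CPM in control replicates 1, 2 and 3, so the groups did not overlap.

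In the test of all 12724 genes that passed the filter (edgeR quasi-likelihood test, Benjamini-Hochberg adjusted p under 0.05), 6 channel genes were higher and 13 were lower with eIF3m siRNA, and 40 did not pass. The share of channel genes called higher was 10.2%, beside 17.4% of all genes tested, and the share called lower was 22.0%, beside 21.2% of all genes tested. The share called lower is thus near that of any gene. In either direction 32.2% of channel genes and 38.7% of all genes tested were called. Counts by family below rest on few genes each and are to be read beside these shares. The median log2 fold change was -0.02 over the 59 channel genes and 0.01 over all genes tested, while changes of either sign had a median size of 0.27 and 0.24. Groups that did not overlap in CPM were found for 23 of the 59 channel genes, 39.0%, beside 48.5% of all genes tested. Without scaling factors 14 channel genes were called higher and 12 lower, beside 4163 higher and 1680 lower among all genes; that setting moved the median of all genes by 0.15 on the log2 scale. DESeq2 called 3 channel genes higher and 12 lower, and leaving out control replicate 3 gave 3 higher and 12 lower. Without eIF3m replicate 1, the library with the blood and endothelial markers, 4 were called higher and 13 lower; Orai3, Kcnj9, Stim2 and Cacnb4 no longer passed, and Cacnb2 and Kcnt1 did. SE ran from 0.04 to 0.62, and 7 of 14 genes with an SE of at most 0.10 were called, against 12 of the other 45. The part of precision in this difference was not tested.

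**Figure D2:**
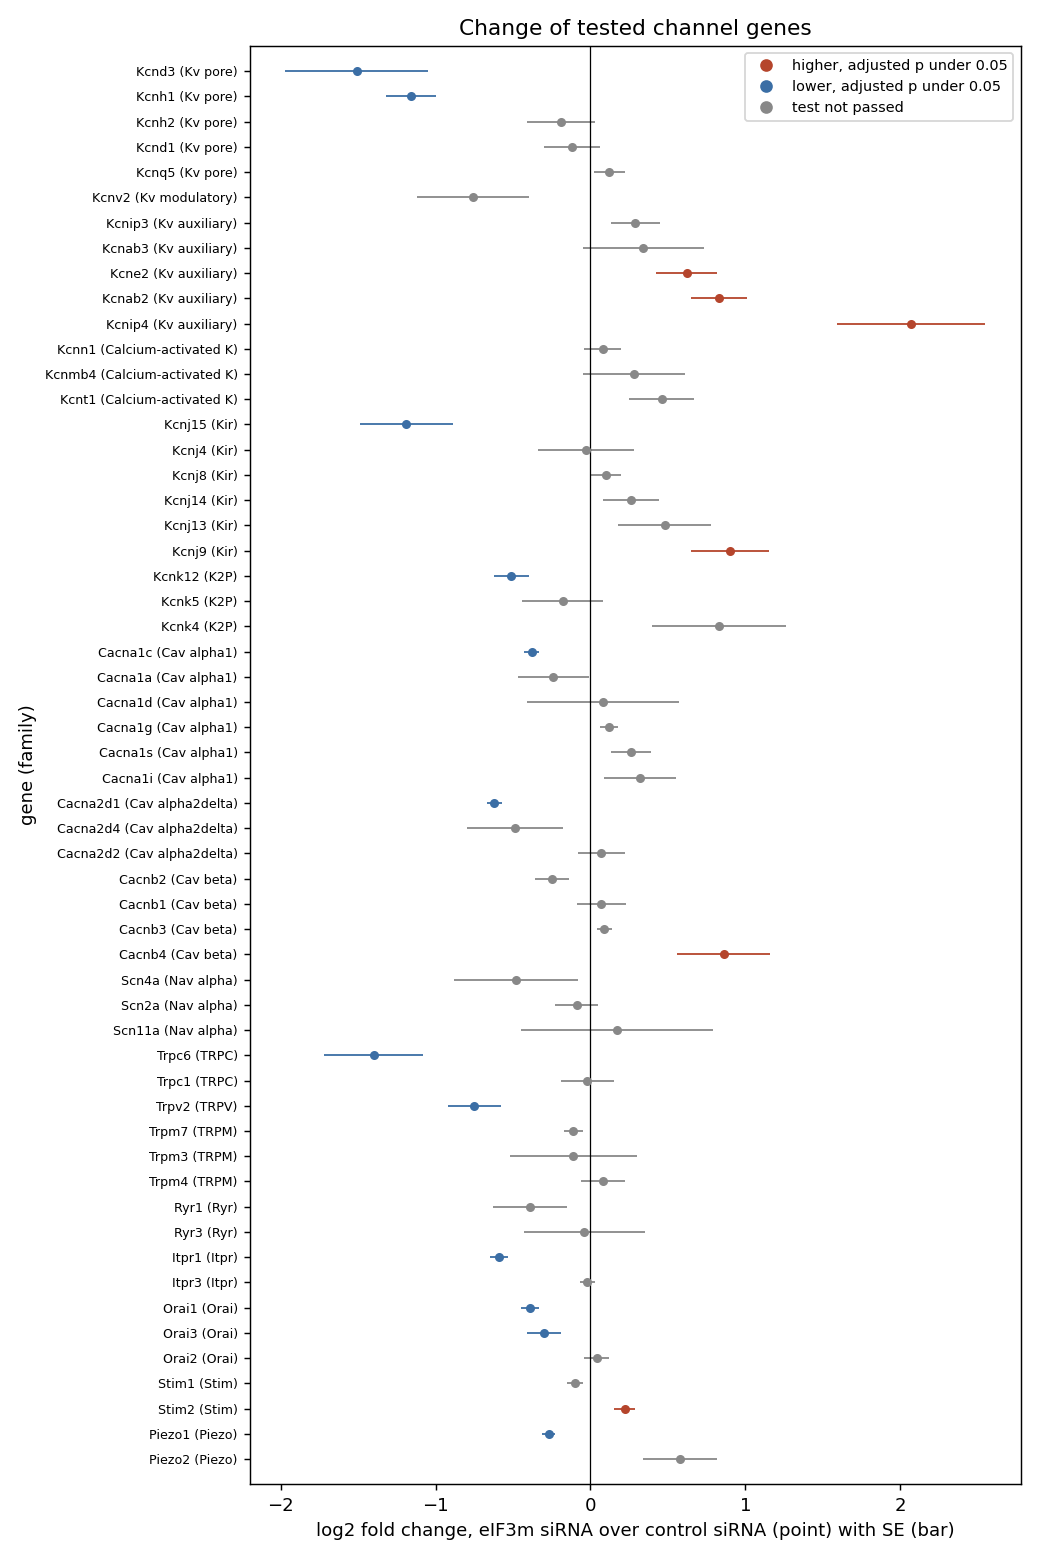
Log2 fold change of eIF3m siRNA over control siRNA (horizontal axis; point, with SE as a bar) for tested channel genes, grouped by family down the page. The genes called lower lie between -1.51 for Kcnd3 and -0.27 for Piezo1, and the 6 called higher between 0.22 for Stim2 and 2.07 for Kcnip4. Kcnd3 and Kcnip4 passed the filter on low counts only through the group in which each was higher.

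The sodium channel pores described here did not pass the test. Scn2a, a pore best known from neurons, was at 12.3 ± 0.357 CPM in eIF3m libraries and 13.3 ± 0.998 CPM in controls and did not pass (-0.09 ± 0.14 SE, edgeR adjusted p = 0.636). Scn4a, the skeletal muscle pore, was at 1.62, 1.32 and 1.32 CPM in the eIF3m libraries, against 2.41, 1.15 and 2.58 CPM in controls (-0.48 ± 0.40 SE, edgeR adjusted p = 0.370), and Scn11a was near the floor (0.17 ± 0.62 SE). For these pores the SE leaves room for changes in either direction. Another 6 pores and 3 beta subunits had too few counts for a test, at most 10 in any library for a pore and 6 for a beta subunit.

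Among voltage-gated calcium channels the L-type pore Cacna1c and the alpha2delta subunit Cacna2d1 were both lower, while the other L-type pores tested, Cacna1s and Cacna1d, did not pass. Cacna1c, the L-type pore of heart and smooth muscle that triggers calcium release, was at 119, 119 and 124 CPM in eIF3m replicates 1, 2 and 3, against 155, 158 and 160 CPM in control replicates 1, 2 and 3. Cacna2d1, the alpha2delta subunit that helps such pores to reach the surface, was at 98.3, 109 and 108 CPM in the eIF3m libraries, against 157, 164 and 162 CPM in controls. For both genes the groups lay apart without overlap. The log2 fold changes were -0.38 ± 0.05 SE for Cacna1c (edgeR adjusted p = 1.45e-05) and -0.62 ± 0.05 SE for Cacna2d1 (edgeR adjusted p = 2.94e-07). Both were called under every alternative tried, and the range with each library left out was -0.40 to -0.36 for Cacna1c and -0.66 to -0.56 for Cacna2d1. Dcp1b, a gene whose span overlaps that of Cacna1c in RefSeq, was at 0.27 ± 0.16 SE and did not pass.

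The 250 bases before the RefSeq start site of these genes (assembly GRCr8, which differs from the build of the counts) are shown. Both genes are shown because they were among the called channel genes of lowest p that had an upstream sequence. Capitals mark matches on either strand. The letters searched were TATAAA for the core promoter element of that name. GGGCGG was searched as the binding site of Sp family factors, called a GC box here. CCAAT was searched as the element bound by nuclear factor Y. CAGCTG was searched as an E-box that myogenic factors bind. GGAATG was searched as the core bound by TEAD factors. The CArG box of serum response factor was searched as well. Cacna1c lies on the minus strand, at chr4:154051749-154051998, and Cacna2d1 on the minus strand at chr4:20330148-20330397.
Cacna1c: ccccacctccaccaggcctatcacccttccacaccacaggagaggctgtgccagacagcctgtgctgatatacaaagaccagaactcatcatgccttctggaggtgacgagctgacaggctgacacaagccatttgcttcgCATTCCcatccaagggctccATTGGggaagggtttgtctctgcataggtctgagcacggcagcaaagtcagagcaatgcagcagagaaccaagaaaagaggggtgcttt
Cacna2d1: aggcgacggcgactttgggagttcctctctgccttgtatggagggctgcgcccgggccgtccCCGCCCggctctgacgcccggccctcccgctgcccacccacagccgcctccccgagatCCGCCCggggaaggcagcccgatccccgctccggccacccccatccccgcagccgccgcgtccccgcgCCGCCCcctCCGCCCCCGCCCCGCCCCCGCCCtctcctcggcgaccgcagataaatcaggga
The upstream sequence of Cacna2d1 held 7 GC boxes, some of them overlapping, 32 CpG pairs and 77.2% G and C, while that of Cacna1c held no GC box, a CCAAT box, a TEAD core, 3 CpG pairs and 54.4% G and C. A GC box was found in 59.5% of the 9150 upstream sequences of tested genes and in 32.4% of all 27457 in the table, a CCAAT box in 36.1% and 34.3%, and a TEAD core in 10.1% and 11.8%. Upstream sequences were found for 120 of the 168 channel genes and for 13 of the 19 called; 4 of the 10 found for genes called lower held a GC box and 2 a TEAD core, beside 1 and 0 of the 3 found for genes called higher. These matches describe letters and not sites in use.

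The other 5 calcium channel pores tested did not pass. Cacna1g, a T-type pore that opens at low voltage and is found in pacemaker and fetal heart cells, was at 150, 140 and 128 CPM in the eIF3m libraries, against 125, 127 and 132 CPM in controls, so the groups overlapped (0.12 ± 0.06 SE, edgeR adjusted p = 0.114). It passed toward higher values without eIF3m replicate 3 (0.20, edgeR adjusted p = 0.00982), but without eIF3m replicate 1 it was at 0.05 (edgeR adjusted p = 0.559). Cacna1s, the L-type pore and voltage sensor of skeletal muscle, was at 21.3, 27.4 and 19.2 CPM in the eIF3m libraries, against 16.4, 17.4 and 20.3 CPM in controls (0.26 ± 0.13 SE, edgeR adjusted p = 0.147). Cacna1i, another T-type pore (0.32 ± 0.23 SE), Cacna1a, a pore of nerve terminals (-0.24 ± 0.23 SE), and Cacna1d, the L-type pore of pacemaker cells (0.08 ± 0.49 SE), did not pass either. Cacna1h had 4, 1 and 0 counts in the eIF3m libraries, against 2, 1 and 1 in controls. Within a library the ratio of Cacna1g to Cacna1c counts, which needs no scaling, was 1.25, 1.18 and 1.04 in eIF3m replicates 1, 2 and 3, against 0.809, 0.807 and 0.821 in control replicates 1, 2 and 3. The ratio was higher in every eIF3m library; with 3 libraries against 3 the exact two-sided permutation test cannot go below 0.1, and it gave that value. The pairs of genes whose ratios are given here and below were chosen after their values were seen.

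Of the beta subunits, which dock inside the cell on the pore and promote its surface expression, 1 was called higher and 0 lower of 4 tested. Cacnb2, the main beta subunit of heart muscle, was at 22.5, 16.8 and 19.9 CPM in the eIF3m libraries, against 24.8, 24.6 and 23.9 CPM in controls. The groups did not overlap, yet the test was not passed (-0.25 ± 0.11 SE, edgeR adjusted p = 0.0867). Without eIF3m replicate 1 it was passed (-0.35, edgeR adjusted p = 0.0466), and without eIF3m replicate 2 the value was -0.19 (edgeR adjusted p = 0.163). Cacnb3 was at 177, 165 and 183 CPM in the eIF3m libraries, against 166, 168 and 161 CPM in controls (0.09 ± 0.05 SE, edgeR adjusted p = 0.172), and Cacnb1, the skeletal muscle form, was at 0.07 ± 0.16 SE. The count ratio of Cacnb3 to Cacna1c was 1.48, 1.39 and 1.48 in the eIF3m libraries, against 1.07, 1.06 and 1.00 in controls, without overlap. That of Cacna2d1 to Cacna1c was 0.824, 0.918 and 0.875 in the eIF3m libraries, against 1.02, 1.04 and 1.01 in controls, again without overlap. Cacnb4 was called higher, at 5.14, 2.65 and 4.68 CPM in the eIF3m libraries, against 2.69, 2.04 and 2.71 CPM in controls (0.86 ± 0.30 SE, edgeR adjusted p = 0.0321). Its groups overlapped through eIF3m replicate 2, the shallowest library. The call was lost without eIF3m replicate 1 (0.72) or 3 (0.83) and without control replicate 1 (0.91), 2 (0.73) or 3 (0.93), with the replicate block (0.77, edgeR adjusted p = 0.0584), with no filter (0.82) and with DESeq2 (0.84). Of the other alpha2delta genes, Cacna2d2 (0.07 ± 0.15 SE) and Cacna2d4 (-0.49 ± 0.31 SE) did not pass.

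**Figure D3:**
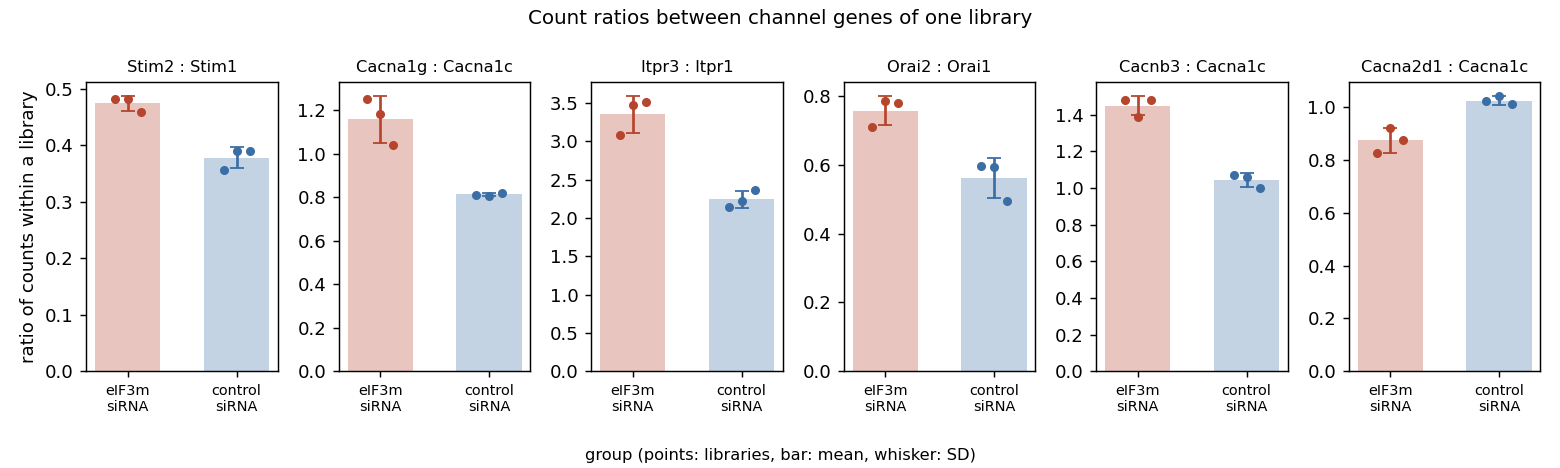
Ratio of raw counts between 2 channel genes of the same library (vertical axis, from 0) in eIF3m siRNA and control siRNA libraries; points are libraries, bars the mean of 3 and whiskers the SD. In each of the 6 panels the groups do not overlap, as for Stim2 to Stim1, at 0.459 to 0.482 in eIF3m libraries and 0.357 to 0.389 in controls; the heights depend on gene length and compare no levels between genes.

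Of the Kv pores tested, 0 were called higher and 2 lower of 6. Kcnh1, an ether-a-go-go pore that is also expressed in dividing myoblasts and tumour cells, stood at 10.2, 10.2 and 11.6 CPM in eIF3m replicates 1, 2 and 3, against 29.3, 19.5 and 23.5 CPM in control replicates 1, 2 and 3. The controls varied more among themselves than the eIF3m libraries, and the groups were well apart. With 10.7 ± 0.847 CPM in eIF3m libraries and 24.1 ± 4.91 CPM in controls, Kcnh1 fell by 1.16 on the log2 scale (SE 0.16, edgeR adjusted p = 2.82e-05), a call that held with each library left out. Kcnd3, a pore of the transient outward current that starts repolarisation, had 12, 0 and 7 counts in the eIF3m libraries, against 13, 25 and 20 counts in controls, which is 1.14, 0 and 0.84 CPM and 1.84, 3.19 and 2.46 CPM. Kcnd3 passed the filter on low counts through the control libraries alone. It fell by 1.51 on the log2 scale (SE 0.46, edgeR adjusted p = 0.0175); the ratio of summed counts, scaled for depth, was 0.357 with a 95% exact counting interval of 0.201 to 0.609. The call was lost without eIF3m replicate 3 (-1.47, edgeR adjusted p = 0.0613) or control replicate 2 (-1.30, edgeR adjusted p = 0.0707). Kcnh2, the rapid delayed rectifier pore, was at 7.42, 8.83 and 5.04 CPM in the eIF3m libraries, against 6.79, 7.66 and 8.61 CPM in controls and did not pass (-0.19 ± 0.22 SE). Kcnq5, at 32.4 ± 3.21 CPM in eIF3m libraries and 29.1 ± 2.31 CPM in controls (0.12 ± 0.10 SE) and Kcnd1 (-0.12 ± 0.18 SE) did not pass either. Kcnv2, a silent subunit that needs a partner pore and the single modulatory gene tested of 10, was at -0.76 ± 0.36 SE (edgeR adjusted p = 0.109).

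Accessory subunits of Kv channels were the family with the most genes called higher, 3 of 5 tested, and none was called lower. Among all genes tested 17.4% were called higher and 21.2% lower, and 5 genes are too few to set a family apart. Kcnab2, a cytosolic beta subunit with an oxidoreductase fold, stood at 11.9, 12.8 and 10.3 CPM in eIF3m replicates 1, 2 and 3, against 7.08, 6.90 and 5.41 CPM in control replicates 1, 2 and 3. The groups did not overlap, and the gene rose by 0.83 ± 0.18 SE on the log2 scale (edgeR adjusted p = 0.00200; 0.71 to 0.92 with each library left out). Its neighbour Nphp4, whose span overlaps it in RefSeq, also rose (0.43 ± 0.10 SE, edgeR adjusted p = 0.00267), and the files do not say whether strand was used in counting. Kcnip4, a calcium-binding partner of Kcnd pores, had 17, 3 and 16 counts in the eIF3m libraries, against 2, 4 and 3 in controls. It passed the filter on low counts through the eIF3m libraries alone. Most control libraries were at or under 3 counts, so its rise (2.07 ± 0.48 SE, edgeR adjusted p = 0.00316) rests on a baseline near the floor; the ratio of summed counts, scaled for depth, was 4.36 with a 95% exact counting interval of 2.06 to 10.3. Kcne2, a small single-pass subunit of Kv pores, was at 11, 7.95 and 13.6 CPM in the eIF3m libraries, against 8.78, 7.53 and 6.15 CPM in controls. Its groups overlapped, and the call (0.62 ± 0.20 SE, edgeR adjusted p = 0.0231) was lost without eIF3m replicate 3 (0.45), control replicate 2 (0.62) or control replicate 3 (0.49) and with DESeq2 (0.60). Kcnip3, a calcium-binding protein that also acts on transcription, was at 18.8, 18.5 and 12.2 CPM in the eIF3m libraries, against 13.9, 12.8 and 13.3 CPM in controls. It did not pass (0.29 ± 0.16 SE). It did without eIF3m replicate 3 (0.50, edgeR adjusted p = 0.0145), but without eIF3m replicate 1 it was at 0.10 (edgeR adjusted p = 0.715). Kcnab3 was at 0.34 ± 0.39 SE.

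Of the calcium- and sodium-activated potassium channel genes, 3 of 12 were tested and none was called by edgeR. At an unadjusted p under 0.05 there was 1 gene, Kcnt1, and DESeq2 called 0 of the 3. Kcnn1, a small-conductance pore, was at 17.7, 16.8 and 17.2 CPM in the eIF3m libraries, against 17.6, 16.3 and 15.4 CPM in controls (0.08 ± 0.12 SE). Kcnt1, a sodium-activated pore, was at 9.99, 16.3 and 12.8 CPM in the eIF3m libraries, against 11.3, 8.81 and 6.76 CPM in controls (0.46 ± 0.21 SE, edgeR adjusted p = 0.0972). Kcnt1 passed toward higher values without eIF3m replicate 1 (0.65, edgeR adjusted p = 0.0210) or control replicate 1 (0.66, edgeR adjusted p = 0.0362). Without control replicate 3 it was at 0.29 (edgeR adjusted p = 0.328). Kcnmb4, a beta subunit of the large-conductance channel, was at 0.28 ± 0.33 SE.

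Inward rectifiers were the family in which called genes moved in opposite directions. Kcnj9, a G protein-gated rectifier subunit known from neurons, stood at 7.99, 7.51 and 5.04 CPM in eIF3m replicates 1, 2 and 3, against 3.96, 3.70 and 3.20 CPM in control replicates 1, 2 and 3. Every eIF3m library was above every control (0.90 ± 0.25 SE, edgeR adjusted p = 0.0106), but the call was lost without eIF3m replicate 1 (0.69, edgeR adjusted p = 0.0828). The neighbour Igsf8, whose span overlaps that of Kcnj9 in RefSeq, had 161 CPM in eIF3m libraries and 151 CPM in controls on average (0.09 ± 0.06 SE) and did not pass. Kcnj15, a rectifier known from kidney and other epithelia, had 25, 5 and 33 counts in the eIF3m libraries, against 53, 36 and 68 in controls, or 2.38, 2.21 and 3.96 CPM and 7.50, 4.60 and 8.36 CPM. The groups did not overlap, and it fell by 1.19 on the log2 scale (SE 0.30, edgeR adjusted p = 0.00555), a call kept with each library left out (-1.53 to -0.96). The count ratio of Kcnj9 to Kcnj15 was 3.36, 3.40 and 1.27 in the eIF3m libraries, against 0.528, 0.806 and 0.382 in controls. Their upstream sequences are given because they are the called members of this family, Kcnj9 from the minus strand at chr13:87320294-87320543 and Kcnj15 from the plus strand at chr11:48070700-48070949, with capitals as above.
Kcnj9: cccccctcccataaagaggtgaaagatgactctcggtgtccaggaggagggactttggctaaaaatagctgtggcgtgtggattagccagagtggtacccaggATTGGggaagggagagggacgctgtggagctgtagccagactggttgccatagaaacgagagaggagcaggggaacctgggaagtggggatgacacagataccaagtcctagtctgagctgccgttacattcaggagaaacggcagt
Kcnj15: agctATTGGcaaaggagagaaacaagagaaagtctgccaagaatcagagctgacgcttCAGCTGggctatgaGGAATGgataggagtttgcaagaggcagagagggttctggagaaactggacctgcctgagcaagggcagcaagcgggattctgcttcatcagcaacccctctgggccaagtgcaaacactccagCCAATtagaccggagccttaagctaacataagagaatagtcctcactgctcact
Kcnj9 held a single CCAAT box, and Kcnj15 held 2 CCAAT boxes, an E-box and a TEAD core. The E-box CAGCTG was found in 12.4% of upstream sequences of tested genes and in 11.9% of all in the table.

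Kcnj8, the pore of the ATP-sensitive potassium channel of vascular smooth muscle, was at 23.1, 23.0 and 21.7 CPM in the eIF3m libraries, against 21.7, 20.7 and 20.8 CPM in controls. Its groups did not overlap, though the nearest libraries both round to 21.7 CPM, and the test was not passed (0.10 ± 0.10 SE, edgeR adjusted p = 0.456). Abcc9, the sulfonylurea receptor subunit that assembles with this pore, was at 71.7, 87.9 and 76.4 CPM in the eIF3m libraries, against 154, 168 and 156 CPM in controls and fell by 1.05 on the log2 scale (SE 0.07, edgeR adjusted p = 7.33e-09). Kcnj14 (0.26 ± 0.18 SE), Kcnj13 (0.48 ± 0.30 SE) and Kcnj4 (-0.03 ± 0.31 SE) did not pass. Among leak channels of the K2P family 3 of 14 were tested. Kcnk12, a subunit that gives little current by itself, was at 19.0, 16.3 and 15.7 CPM in the eIF3m libraries, against 22.9, 25.5 and 25.5 CPM in controls, without overlap. It fell by 0.51 on the log2 scale (SE 0.11, edgeR adjusted p = 0.00239; -0.63 to -0.43 with each library left out). Kcnk5, an alkaline-activated leak pore (-0.18 ± 0.26 SE), and Kcnk4, a stretch-sensitive one (0.83 ± 0.43 SE, edgeR adjusted p = 0.140), did not pass.

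**Figure D4:**
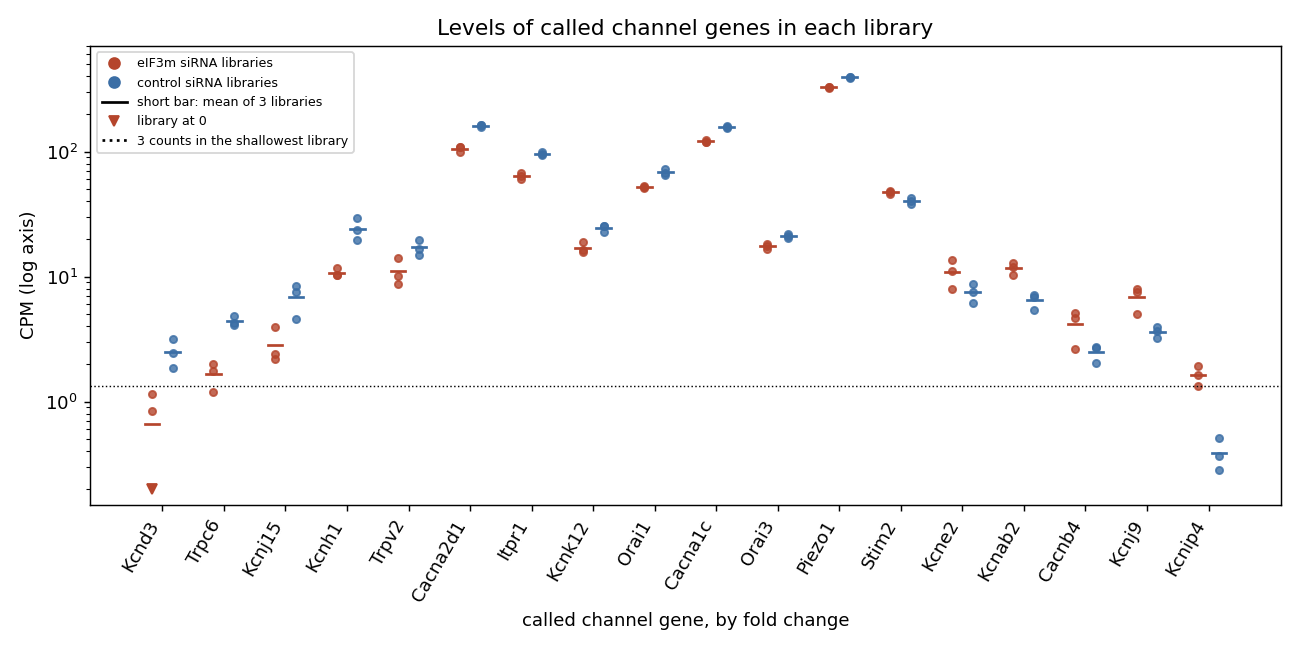
CPM (log axis) of called channel genes in each library, ordered by fold change, with eIF3m siRNA libraries left of control siRNA libraries; short bars are means of 3, the triangle marks a library at 0 and the dotted line 3 counts in the shallowest library, 1.32 CPM. Cacna2d1, Itpr1, Cacna1c and Piezo1 show tight groups that do not overlap, while Kcnd3 and Kcnip4 lie near the line.

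TRP channels, cation pores opened by lipids, temperature, stretch or calcium, counted 0 called higher and 2 lower of 6 tested. Trpc6, a pore gated by diacylglycerol and linked to hypertrophic signalling in heart, had 21, 4 and 10 counts in the eIF3m libraries, against 30, 38 and 33 in controls, or 2.00, 1.77 and 1.20 CPM and 4.25, 4.85 and 4.06 CPM. All eIF3m libraries were below all controls, and it fell by 1.40 on the log2 scale (SE 0.32, edgeR adjusted p = 0.00261; -1.69 to -1.16 with each library left out). Trpv2, a stretch-responsive cation pore of muscle, was at 8.76, 14.1 and 10.1 CPM in the eIF3m libraries, against 16.7, 19.7 and 15 CPM in controls, without overlap. It fell by 0.75 on the log2 scale (SE 0.17, edgeR adjusted p = 0.00261; -0.86 to -0.60). Trpm7, a magnesium-permeable pore fused to a kinase, was at 124, 140 and 145 CPM in the eIF3m libraries, against 146, 147 and 148 CPM in controls (-0.11 ± 0.06 SE, edgeR adjusted p = 0.150). Its groups did not overlap, and it passed toward lower values without eIF3m replicate 3 (-0.18, edgeR adjusted p = 0.0300). Without eIF3m replicate 1 it was at -0.02 (edgeR adjusted p = 0.757), and its sign turned with no scaling factors (0.03). Trpm4, a calcium-activated pore for monovalent cations, was at 25.2, 16.8 and 19.7 CPM in the eIF3m libraries, against 20.1, 23.6 and 17.7 CPM in controls (0.08 ± 0.14 SE). Trpc1 (-0.02 ± 0.17 SE) and Trpm3 (-0.11 ± 0.41 SE) also overlapped and did not pass. The other 15 TRP genes were not tested and had at most 13 counts in any library.

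Of the calcium release channels, Itpr1 was lower and the rest of those tested did not pass. Itpr1, a receptor for inositol trisphosphate in the endoplasmic reticulum, stood at 67.2, 63.2 and 60.7 CPM in eIF3m replicates 1, 2 and 3, against 100, 94.9 and 94.1 CPM in control replicates 1, 2 and 3. The groups were far apart, with means of 63.7 ± 3.28 and 96.3 ± 3.25 CPM (SD, n = 3 each), and the gene fell by 0.59 on the log2 scale (SE 0.06, edgeR adjusted p = 9.49e-07; -0.64 to -0.54 with each library left out). Its upstream sequence, from the plus strand at chr4:142743190-142743439, is given for the same reason as those of the L-type subunits above.
Itpr1: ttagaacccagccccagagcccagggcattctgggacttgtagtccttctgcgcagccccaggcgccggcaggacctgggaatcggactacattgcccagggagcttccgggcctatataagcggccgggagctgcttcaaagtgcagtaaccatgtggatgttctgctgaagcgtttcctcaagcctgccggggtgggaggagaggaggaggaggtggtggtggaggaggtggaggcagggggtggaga
It held none of the letters searched, with 62.0% G and C and 9 CpG pairs, which says nothing of the factors that act there. Itpr3, the paralogue that shares its ligand, was at 207, 219 and 213 CPM in the eIF3m libraries, against 215, 210 and 222 CPM in controls (-0.02 ± 0.05 SE, edgeR adjusted p = 0.744). With no scaling factors Itpr3 was called higher instead (0.12, edgeR adjusted p = 0.0489). The count ratio of Itpr3 to Itpr1 was 3.08, 3.47 and 3.51 in the eIF3m libraries, against 2.15, 2.22 and 2.36 in controls, so the ratio was higher in every eIF3m library than in any control.

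Ryanodine receptors were low. Ryr2, the release channel of heart muscle, had 4, 3 and 3 counts in the eIF3m libraries, against 2, 4 and 5 in controls and was not tested. Ryr1, the release channel of skeletal muscle, was at 5.23, 4.42 and 5.16 CPM in the eIF3m libraries, against 4.81, 6.51 and 8.49 CPM in controls (-0.39 ± 0.24 SE, edgeR adjusted p = 0.230). Ryr3, which is expressed in many tissues, was at 1.71, 0.883 and 2.64 CPM in the eIF3m libraries, against 2.26, 2.30 and 1.48 CPM in controls (-0.04 ± 0.39 SE). For Ryr1 and Ryr3 the groups overlapped, and the SE leaves room for changes of the size seen in Itpr1.

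In store-operated calcium entry 1 of 2 sensors was called higher and 2 of 3 pores were called lower. Stim1, the main sensor of store calcium, was at 99.5, 99.8 and 99.1 CPM in eIF3m replicates 1, 2 and 3, against 107, 110 and 103 CPM in control replicates 1, 2 and 3. Its groups did not overlap but the test was not passed (-0.10 ± 0.05 SE, edgeR adjusted p = 0.144), and its sign turned with no scaling factors (0.05). Stim2, a sensor that responds to smaller losses of store calcium, was at 47.9, 48.1 and 45.5 CPM in the eIF3m libraries, against 38.1, 42.7 and 40.2 CPM in controls, and it rose (0.22 ± 0.07 SE, edgeR adjusted p = 0.0267). The call was lost without eIF3m replicate 1 (0.21), control replicate 1 (0.18) or control replicate 3 (0.22) and with DESeq2 (0.23). The count ratio of Stim2 to Stim1, free of scaling, was 0.481, 0.482 and 0.459 in the eIF3m libraries, against 0.357, 0.389 and 0.389 in controls. Every eIF3m library was above every control, with means of 0.474 ± 0.0132 and 0.378 ± 0.0188 (exact permutation p = 0.1, the smallest possible).

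Of the pores that Stim proteins open, Orai1 was at 51.8, 51.2 and 52.9 CPM in the eIF3m libraries, against 65.0, 67.3 and 72.3 CPM in controls. The groups did not overlap, and Orai1 fell by 0.39 on the log2 scale (SE 0.06, edgeR adjusted p = 1.36e-04; -0.42 to -0.34 with each library left out). Orai3, which can join Orai1 in mixed channels, was at 16.7, 18.1 and 17.4 CPM in the eIF3m libraries, against 20.4, 21.8 and 21.3 CPM in controls. It lay close to the threshold (-0.30 ± 0.11 SE, edgeR adjusted p = 0.0430). The call was lost without eIF3m replicate 1 (-0.26) or 3 (-0.30) and without control replicate 1 (-0.32), 2 (-0.27) or 3 (-0.29), and also with no scaling factors (-0.15), no filter (-0.31), DESeq2 (-0.29) or the replicate block (-0.28, edgeR adjusted p = 0.0747). Orai2 was at 36.6, 40.2 and 41.1 CPM in the eIF3m libraries, against 38.8, 39.8 and 35.8 CPM in controls and did not pass (0.04 ± 0.08 SE, edgeR adjusted p = 0.774). The count ratio of Orai2 to Orai1 was 0.708, 0.784 and 0.778 in the eIF3m libraries, against 0.597, 0.592 and 0.495 in controls, again without overlap.

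Of the stretch-gated pores, 0 were called higher and 1 lower of 2. Piezo1, which senses membrane tension in blood vessels and heart, stood at 329, 329 and 320 CPM in eIF3m replicates 1, 2 and 3, against 391, 393 and 398 CPM in control replicates 1, 2 and 3. These were among the tightest groups of the channel genes, and the fall (-0.27 ± 0.04 SE, edgeR adjusted p = 5.87e-05) was kept under all 12 alternatives (-0.29 to -0.13). Ctu2, whose span overlaps that of Piezo1 in RefSeq, was at 0.18 ± 0.08 SE and did not pass. Piezo2, the touch receptor of sensory neurons, was at 6.19, 7.07 and 6.12 CPM in the eIF3m libraries, against 4.81, 3.06 and 4.80 CPM in controls. Every eIF3m library was above every control, yet the test was not passed (0.58 ± 0.24 SE, edgeR adjusted p = 0.0705).

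Genes that work with these channels were read from the same fit in 4 lists, each described by its counts beside those of all genes tested (17.4% called higher and 21.2% called lower). From each list the called genes of lowest p are named. Calcium store and extrusion genes counted 2 higher and 13 lower of 23 tested, with a median log2 fold change of -0.40, beside 0.01 over all genes tested. The pump that refills the sarcoplasmic reticulum, Atp2a2, was at 522, 504 and 535 CPM in the eIF3m libraries, against 760, 765 and 763 CPM in controls (-0.55 ± 0.03 SE, edgeR adjusted p = 3.98e-09). Casq2, the calcium buffer of the cardiac sarcoplasmic reticulum, was at 191, 185 and 183 CPM in the eIF3m libraries, against 427, 436 and 445 CPM in controls and fell by 1.22 on the log2 scale (SE 0.04, edgeR adjusted p = 1.45e-11). For both genes the groups lay far apart. The chaperones Calr (-0.53 ± 0.02 SE) and Canx (-0.75 ± 0.03 SE), which bind calcium in the endoplasmic reticulum, also fell. The genes that rose were Atp2b4, a plasma membrane calcium pump (0.60 ± 0.08 SE), and Micu2, a gatekeeper of the mitochondrial calcium uniporter (0.20 ± 0.07 SE).

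Junction and release channel partners counted 1 higher and 8 lower of 25, with a median of -0.13. Saraf, which limits store-operated entry by acting on Stim1, was at 59.5, 60.1 and 60.7 CPM in the eIF3m libraries, against 115, 124 and 107 CPM in controls and fell by 0.93 on the log2 scale (SE 0.06, edgeR adjusted p = 1.38e-08). Jph2, which holds the surface membrane next to the release channels, fell by 0.60 (SE 0.06), the muscle caveolin Cav3 by 0.68 (SE 0.08) and Esyt1, a tether between the endoplasmic reticulum and the plasma membrane, by 0.40 (SE 0.05). The gene that rose was Calm3, one of the calmodulin genes (0.49 ± 0.07 SE).

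Channel trafficking and anchoring genes counted 1 higher and 6 lower of 19, with a median of 0.07. Ank2, the ankyrin that anchors exchangers and channels in heart muscle, fell by 0.41 on the log2 scale (SE 0.05, edgeR adjusted p = 2.02e-05). Ahnak, which binds calcium channel beta subunits, fell by 0.36 (SE 0.02), the scaffold Dlg1 by 0.46 (SE 0.05) and the anchoring protein Akap6 by 0.85 (SE 0.12). The gene called higher was Gem, a small GTPase that restrains L-type channels, with 16, 6 and 10 counts in the eIF3m libraries, against 0, 3 and 5 in controls (edgeR adjusted p = 0.0155), a baseline near the floor. Gem passed the filter on low counts through the eIF3m libraries alone.

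Channels outside the symbol rule counted 2 higher and 12 lower of 27, with a median of -0.33. Besides Abcc9, described above, the endolysosomal chloride-proton exchanger Clcn7 (-0.73 ± 0.05 SE), the calcium-activated scramblase and channel Ano6 (-0.55 ± 0.06 SE) and the ATP-gated pore P2rx4 (-0.99 ± 0.10 SE) fell. The genes that rose were P2rx6, another member of the ATP-gated family (1.71 ± 0.30 SE, edgeR adjusted p = 3.44e-04), and Asic1, an acid-sensing pore (0.62 ± 0.19 SE).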

How the data were processed

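RNA of rat cells labelled NRVM was sequenced in 3 eIF3m siRNA and 3 control siRNA libraries, 1 file each. The authors deposited raw whole-number counts per gene symbol. Per the submitters' processing notes, Trimmomatic 0.40, HISAT2 2.2.1, featureCounts and the rn6 build were named; the annotation, strand setting and treatment of multiply mapped reads were not given in any source used here. Of 31038 symbols, 27 that a spreadsheet had turned into dates, 0.203% to 0.216% of counts, were left out. The remaining counts were tested with edgeR 4.0.16 in R 4.3.3 (quasi-likelihood test, TMM scaling, filterByExpr at its settings of 10 per library and 15 in total, Benjamini-Hochberg adjustment over all 12724 genes tested, threshold 0.05, two-sided). CPM used library totals times TMM factors. No pair of libraries was a duplicate. On simulated counts for the 12724 genes, with 200 changed, the test recovered 65% of 1.5-fold and 86% of 2-fold changes. Of its calls, 3.64% were unchanged genes. The simulation used trended dispersions and few changed genes, whereas 4920 genes were called in the data. Its figures therefore do not give the recovery or error of this contrast, nor those of low-count channel genes.

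Channel genes, marker lists and partner lists were chosen with earlier results of these data known. Named are all called channel genes, the tested gene of highest mean CPM in each family, a fixed set of cardiac channels and, in partner lists, up to 4 called genes of lowest p in each direction; other channel genes named beside them were chosen after their values were seen. Upstream sequences are RefSeq, GRCr8, 250 bases; all 168 symbols are RefSeq symbols. Alternatives were RLE or no scaling factors, DESeq2 1.42.0, no filter, a stricter filter, the replicate number as a block, and each library left out. Results of a few genes in these families are not reported here, though counts over all channel genes include them.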

Additional observations from a re-analysis of the deposited data

How the results depend on the processing

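Of the 19 called channel genes, 13 kept their direction and call in all 12 alternatives, among them Cacna2d1, Itpr1, Cacna1c, Kcnh1, Piezo1, Orai1, Kcnk12, Trpc6, Trpv2, Kcnj15, Kcnab2 and Kcnip4. Kcnip4 entered the main test through the eIF3m libraries alone, and with no filter it was at 2.04 (edgeR adjusted p = 0.0111). The calls of Cacnb4, Orai3, Stim2, Kcne2, Kcnj9 and Kcnd3 were each lost in at least 1. No scaling factors gave 14 channel genes called higher, against 6, and 4163 higher and 1680 lower among all genes, against 2220 and 2700. DESeq2 called 3 channel genes higher. With each library left out, channel genes counted 3 to 6 higher and 11 to 13 lower, and all genes 1760 to 2128 higher and 2330 to 2622 lower. The replicate block gave 5 higher and 12 lower; libraries of the same number did not deviate together (correlations 0.0304, -0.00543 and 0.00765), so the numbers were not taken as pairs. No filter gave 8 higher and 12 lower.

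Some channel genes that did not pass changed sign, and the cause was not tested. With no scaling factors the log2 fold changes became 0.05 for Stim1, 0.03 for Trpm3, 0.12 for Itpr3, 0.05 for Scn2a, 0.11 for Ryr3, 0.03 for Trpm7, 0.12 for Kcnj4, 0.13 for Trpc1 and 0.03 for Kcnd1. Trpc1 was at 0.01 with DESeq2. With the replicate block Cacna1d was at -0.07, Kcnj4 at 0.0043 and Trpc1 at 0.02. With each library left out the values ranged from -0.42 to 0.52 for Cacna1d, -0.02 to 0.12 for Cacna2d2, -0.02 to 0.16 for Cacnb1, -0.04 to 0.0022 for Itpr3, -0.21 to 0.62 for Kcnab3, -0.32 to 0.03 for Kcnh2, -0.22 to 0.15 for Kcnj4, -0.01 to 0.11 for Orai2, -0.40 to 0.11 for Ryr3, -0.61 to 0.68 for Scn11a, -0.11 to 0.16 for Trpc1, -0.37 to 0.08 for Trpm3 and -0.11 to 0.19 for Trpm4. Depth limits the low genes: 17 tested channel genes had under 10 counts in eIF3m replicate 2.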
